A study of Sus scrofa with 24 samples.

Results

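The transforming growth factor beta (TGF-beta) pathway genes described here are 8: the ligands TGFB1, TGFB2 and TGFB3, the receptors TGFBR1, TGFBR2 and TGFBR3, the activin subunit gene INHBA and the signal carrier SMAD3. Each was taken from the array probes whose gene name, or whose sequence record in RefSeq, gives that symbol. This found 12 probes for 7 of the 8 genes, out of 6205 named genes with a usable probe. No probe matched TGFBR2, the type II receptor that binds the ligands, and it is not analysed here.

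The 24 heart muscle samples, 1 array each, were from 9 domestic pigs in which an infarct had been made without opening the chest and the artery then reopened. All pigs had oral aspirin (250 mg) and clopidogrel (300 mg) on the day before the infarct, and 100 mg and 75 mg a day afterwards. At 1 month after the infarct they were randomized to catheter injections into the myocardium, and the hearts were sampled 1 month later. In the secretome arm (pigs 11 to 16) the injection held what apoptotic mononuclear blood cells release, and the medium arm (pigs 10, 18 and 40, labelled as not treated) is taken as the placebo arm. Tissue was sampled from the core of the infarct, from its border zone, which had received the injections, and from remote myocardium labelled normal. The medium arm gave 3, 3 and 2 arrays of core, border zone and normal region, and the secretome arm gave 6, 6 and 4. Pigs 12, 13 and 40 had no normal region array, and as the series' design names 8 animals in each arm, part of the randomized animals are not analysed here. The labels give neither age nor sex of the pigs.

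TGF-beta ligands are made as latent dimers that are held in the extracellular matrix until they are released. The free ligand brings together the type II receptor and the type I receptor TGFBR1, which phosphorylates SMAD2 and SMAD3, and these enter the nucleus with SMAD4 and switch on genes of matrix and of feedback. In the injured heart the pathway is known for turning fibroblasts into matrix-making myofibroblasts. INHBA encodes the beta A subunit of activin A, a related ligand that also signals through SMAD2 and SMAD3, and TGFBR3 (betaglycan) is a co-receptor that presents TGFB2 to the other receptors.

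Levels are given as the log2 signal of a probe minus the 75th percentile of its array, so 0 is the array's own 75th percentile, and levels of different probes are not compared. The results on INHBA turn on which of its probes is read. The 60-base probe sequences below, as the array files give them, are those of TGFB3, TGFB1 and SMAD3 that were set beside a brighter probe of the same gene.
TGFB3 A_72_P621617: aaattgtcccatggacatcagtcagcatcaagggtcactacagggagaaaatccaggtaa
TGFB1 A_72_P442849: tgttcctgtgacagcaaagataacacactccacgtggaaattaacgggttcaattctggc
SMAD3 A_72_P444518: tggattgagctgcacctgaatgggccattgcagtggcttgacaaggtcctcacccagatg

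The share of the 43603 probes that were detected well above background ran from 61.5% to 75.7% across arrays. The border zone array of pig 40 had the lowest share and the lowest 75th percentile, 210 signal units against up to 617. The arrays were scanned in 2 series: series 1 held pigs 12, 13, 16, 18 and 40 and series 2 held pigs 10, 11, 14 and 15. The normal region had 2 arrays in series 1 and 4 in series 2, so differences within each series are given beside the pooled ones. The region labels were set against heart muscle markers. The 10 measured cardiomyocyte markers summed to 6310 to 10300 times the 75th percentile in the normal region, 3590 to 9980 in the border zone and 147 to 7630 in the infarct core. The lowest infarct core value was that of pig 40. By the mean of their log2 levels the core of pig 15 was highest (8.67), above the lowest normal region array (8.52).

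In the infarct core, 4 of the 7 measured genes were higher than in the normal region and 1 was lower by their brightest probe (limma, Benjamini-Hochberg adjusted p under 0.05 over all probes). TGFB3 rose 12.9-fold, TGFBR1 3.18-fold, TGFB2 1.60-fold and TGFB1 1.47-fold, and SMAD3 fell by 0.36 on the log2 scale. For comparison, 25.4% of all 34360 probes were higher and 27.6% were lower in the infarct core than in the normal region. Between the border zone and the normal region TGFB3 alone passed, as a higher gene, where 0.457% of all probes were higher and 0.00873% lower. From the border zone to the infarct core TGFB1, TGFB3 and TGFBR1 were higher, where 23.0% of all probes were higher and 23.6% lower. With a normexp background correction the calls of TGFB3 and TGFB1 between core and normal region held, while TGFBR1 (0.46, adjusted p = 0.191, limma), TGFB2 (0.36, adjusted p = 0.309) and SMAD3 (−0.26, adjusted p = 0.334) did not pass, nor did the dimmer INHBA probe (0.65, adjusted p = 0.0884). These are tissue samples, so more cells of a type and more RNA per cell cannot be told apart.

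**Figure D1:**
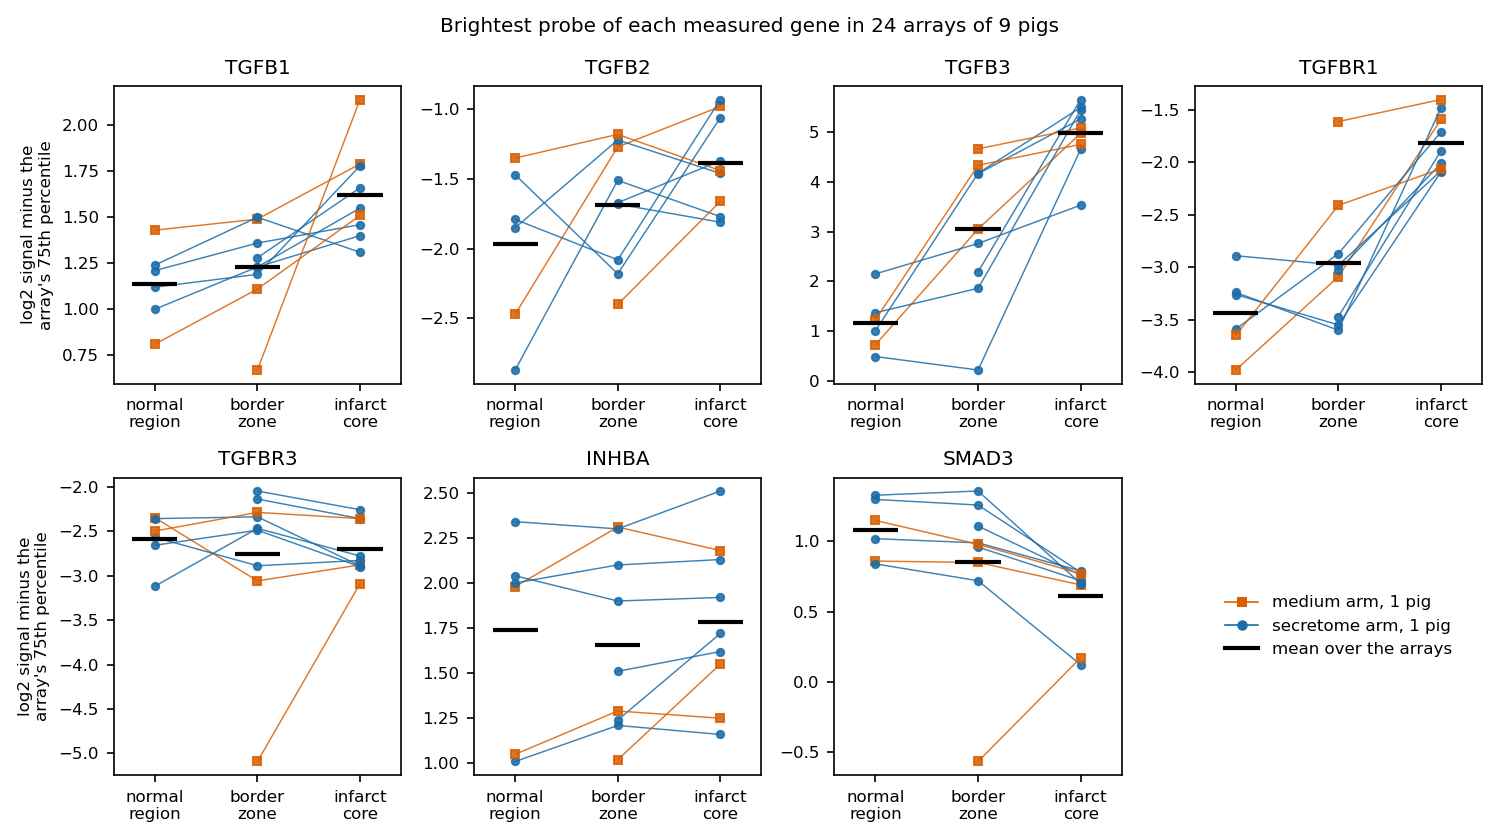
Each panel plots 1 gene's brightest probe: the level (log2 signal minus the array's 75th percentile, a separate axis per gene) against the region, with lines joining the arrays of a pig. Squares are pigs of the medium arm, circles pigs of the secretome arm and bars the mean over the arrays. TGFB3 and TGFBR1 in the infarct core lie above every normal region array, SMAD3 in the infarct core lies below every normal region array, and the border zone array of pig 40 stands apart for TGFBR3 and SMAD3.

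TGFB3, the ligand isoform abundant in developing and repairing connective tissue, gave the largest differences of the 7 genes by their brightest probes, in each region comparison. Its level was 0.49 to 2.15 (median 1.12) on the 6 normal region arrays, 0.22 to 4.66 (median 3.05) on the 9 border zone arrays and 3.53 to 5.65 (median 5.08) on the 9 infarct core arrays. No infarct core array overlapped the normal region, whereas the border zone ran from below the lowest normal array to within the range of the core. The infarct core exceeded the normal region by 3.68 ± 0.43 (log2 difference ± SE, adjusted p = 1.24e-06, limma), with 6 of 6 pigs higher. Within pigs this difference was 3.52 to 4.48 in 5 pigs and 1.38 in pig 15, whose infarct core had the lowest TGFB3 level and the lowest fibroblast marker mean of the core arrays. The normal region array of pig 15 had the highest TGFB3 level and fibroblast marker mean of the normal arrays. The core to normal difference was 4.10 within scan series 1 and 3.72 within series 2, both past the threshold.

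The border zone split the pigs for TGFB3. Pigs 10, 16 and 18 were higher in the border zone than in their normal region by between 2.32 and 3.16, pigs 14 and 15 by 0.49 and 0.60, and pig 11 was lower by 0.27. The pooled difference was 2.01 ± 0.43 (adjusted p = 0.0398, limma), with 5 of 6 pigs higher. This call was lost with pig as a fixed replicate block (1.94, adjusted p = 0.238) and in scan series 2 alone (1.30, adjusted p = 0.999), while series 1 alone gave 2.92 (adjusted p = 0.042). Leaving out pigs 10, 12, 14, 16, 18 or 40, each alone, lost it too (adjusted p = 0.144, 0.0793, 0.0636, 0.179, 0.301 and 0.101, limma). So did 7 other settings, among them quantile scaling (adjusted p = 0.0556) and the authors' deposited values (1.79, adjusted p = 0.165). From border zone to infarct core TGFB3 rose in 9 of 9 pigs, by 0.42 in pigs 18 and 40 up to 4.43 in pig 11 (1.68 ± 0.37, adjusted p = 0.00101, limma).

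All 3 TGFB3 probes were higher in the infarct core. The probe A_72_P621617, printed above, gave 3.61 ± 0.41 against the normal region, 1.95 ± 0.41 for border zone against normal and 1.65 ± 0.35 for core against border zone, each past the threshold (adjusted p = 8.08e-07, 0.0346 and 0.000651, limma). It followed the brightest probe with r = 0.98 over the 24 arrays, which share scan series and pigs. The third probe, A_72_P030601, was well above background on 15 arrays and gave 1.67 ± 0.25, 0.71 ± 0.25 and 0.96 ± 0.21, in part against values below background, since it was above it on 9 of 9 core, 4 of 9 border zone and 2 of 6 normal region arrays, the border zone difference not past the threshold (adjusted p = 0.192, limma). With the normexp correction this probe's core to normal difference was −0.01 (adjusted p = 0.991).

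TGFB1, the isoform made by platelets, macrophages and many other cells, was higher in the infarct core by a smaller amount. Its level was 0.81 to 1.43 (median 1.17) in the normal region, 0.67 to 1.50 (median 1.23) in the border zone and 1.31 to 2.14 (median 1.55) in the infarct core. The ranges of core and normal region overlapped, yet each of the 6 pigs was higher in its core, by 0.08 (pig 11) to 0.71 (pig 18). The differences were 0.55 ± 0.13 for core against normal (adjusted p = 0.001, limma), 0.08 ± 0.13 for border zone against normal (adjusted p = 0.829) and 0.48 ± 0.11 for core against border zone (adjusted p = 0.00129). In the border zone 6 of 6 pigs were higher than in their normal region, by 0.06 (pigs 10 and 14) to 0.30 (pig 18). By the TGFB1 probe printed above 4 of 6 were higher. Pig 40, with the lowest border zone level (0.67), had no normal region array and so no pair there. Without pig 40 the core to border difference was 0.29 (adjusted p = 0.0211, limma). The core to normal difference was 0.77 within scan series 1 (adjusted p = 0.0204, limma) and 0.35 within series 2 (adjusted p = 0.15). The core to border difference was 0.61 and 0.24, of which series 2 did not pass (adjusted p = 0.333, limma).

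The TGFB1 probe printed above gave 0.36 ± 0.19 for core against normal, which missed the threshold (adjusted p = 0.126, limma), and 0.49 ± 0.17 for core against border zone (adjusted p = 0.0197). The latter was 0.24 without pig 40 (adjusted p = 0.233). Pig 40 also gave the largest core to border difference by the brightest TGFB1 probe, 1.47 against −0.19 to 0.59 in the other 8 pigs. The 2 TGFB1 probes had r = 0.65 over the 24 arrays.

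TGFB2, the isoform known for its part in heart valve and cushion formation, was read by 1 probe. Its level was −2.87 to −1.35 (median −1.82) in the normal region, −2.40 to −1.18 (median −1.67) in the border zone and −1.81 to −0.93 (median −1.44) in the infarct core. All regions overlapped. The infarct core exceeded the normal region by 0.68 ± 0.23 (adjusted p = 0.0164, limma), with 5 of 6 pigs higher. Pig 10 (1.48) and pig 16 (1.10) had the largest within-pig differences, and without pig 10 the difference was 0.33 (adjusted p = 0.347). Within scan series 1 it was 0.58 (adjusted p = 0.128, limma) and within series 2 it was 1.02 (adjusted p = 0.0291). The border zone differed by 0.39 ± 0.23 from normal and the core by 0.29 ± 0.20 from the border zone, neither past the threshold (adjusted p = 0.442 and 0.244, limma).

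INHBA was read by 2 probes of the same RefSeq record that did not move together (r = 0.11 over the 24 arrays). The brighter probe, A_72_P223272, had a level of 1.01 to 2.34 (median 1.99) in the normal region, 1.02 to 2.31 (median 1.51) in the border zone and 1.16 to 2.51 (median 1.72) in the infarct core. Its regions overlapped throughout, and none of its differences passed: 0.17 ± 0.16 for core against normal, 0.05 ± 0.16 for border zone against normal and 0.13 ± 0.14 for core against border zone (adjusted p = 0.384, 0.932 and 0.478, limma). Its levels parted by scan series instead, at 1.01 to 1.72 on the 12 arrays of series 1 and 1.90 to 2.51 on the 12 arrays of series 2.

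The dimmer INHBA probe, A_72_P442262, rose in the infarct core. Its level was −3.11 to −1.33 (median −2.26) in the core, −7.31 to −4.01 (median −4.48) in the border zone and −6.82 to −2.97 (median −4.90) in the normal region. It was well above background on all 9 core arrays, 7 of 9 border zone arrays and 3 of 6 normal region arrays, so the low values are near the floor of the array. Core and border zone did not overlap, and the normal region array of pig 14 (−2.97) was the only one to reach into the core's range. The core exceeded the normal region by 2.79 ± 0.41 (adjusted p = 1.10e-05, limma; 6 of 6 pigs) and the border zone by 2.21 ± 0.35 (adjusted p = 5.27e-05; 9 of 9 pigs). The size of the first rests in part on values below background: the probe was well above it on 3 of the 4 normal region arrays with secretome and on 0 of the 2 with medium. Within the medium arm the mean of the 3 core arrays was at least 7.72-fold above that of the 2 normal arrays. For this each normal array was set no lower than its lowest signal well above background. The means are not paired within pigs. As given above, the normexp correction gave a smaller pooled difference that did not pass, so the bound holds for this scaling only. Border zone against normal was 0.58 ± 0.41 (adjusted p = 0.535, limma). The core to normal difference was 2.82 within scan series 1 and 2.97 within series 2 (adjusted p = 0.000896 and 0.0432, limma), and the core to border difference was 1.53 (adjusted p = 0.00748) and 3.05 (adjusted p = 0.0542).

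Near its 3′ end the brighter INHBA probe holds the run GCTCAATAAAT, which the dimmer probe lacks. This run stands on 27 of the 43603 probes on either strand (0.0619%), among them probes of 5 named genes. Of the 26 usable ones among them, 13 passed between core and normal region, with a median difference of −0.01. That is close to the share over all probes, of which 25.4% were higher and 27.6% lower. The run was chosen after the values were seen, and its part in the INHBA values was not tested. The mean of both INHBA probes gave 1.48 for core against normal and 1.17 for core against border zone (adjusted p = 2.28e-05 and 0.000103, limma). As the brighter probe differed little between regions, these values come mostly from the dimmer probe and are not a separate reading of the gene.

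**Figure D2:**
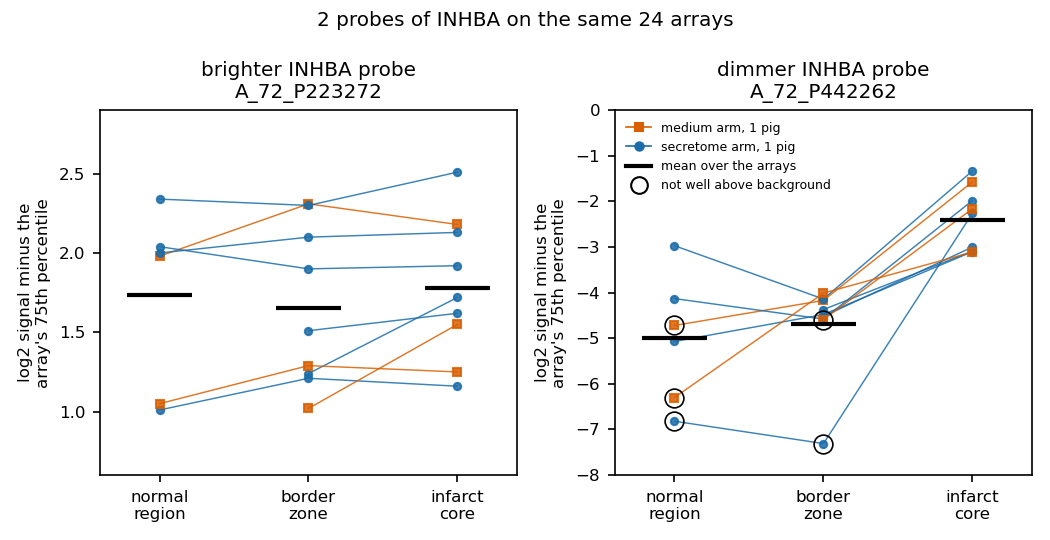
The 2 INHBA probes on the same 24 arrays: level (log2 signal minus the array's 75th percentile) against region, lines joining the arrays of a pig, bars for the mean over the arrays and open rings for values not well above background. The brighter probe overlaps across regions, with the 4 pigs of scan series 2 above the 5 pigs of series 1, while by the dimmer probe all 9 infarct core arrays lie above all border zone arrays.

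TGFBR1, the type I receptor kinase also called ALK5, was higher in the infarct core in every pig. Its level was −3.98 to −2.89 (median −3.42) in the normal region, −3.60 to −1.61 (median −3.03) in the border zone and −2.09 to −1.40 (median −1.89) in the infarct core. Core and normal region did not overlap, and of the border zone arrays that of pig 40 (−1.61) lay within the core's range, with pig 18 (−2.41) next. The core exceeded the normal region by 1.67 ± 0.18 (adjusted p = 4.52e-07, limma; 6 of 6 pigs) and the border zone by 1.03 ± 0.15 (adjusted p = 2.91e-05; 9 of 9 pigs). Both passed in each scan series: 1.79 and 1.82 against the normal region, and 0.77 and 1.50 against the border zone. Border zone against normal was 0.64 ± 0.18 and did not pass (adjusted p = 0.103, limma), with 3 of 6 pigs higher.

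TGFBR3 did not pass in any region comparison. Its level was −3.12 to −2.35 (median −2.53) in the normal region, −5.09 to −2.05 (median −2.47) in the border zone and −3.09 to −2.26 (median −2.83) in the infarct core. The value of −5.09 was the border zone of pig 40, the array with the lowest signal, and the only array where the probe was not well above background. The core differed from the normal region by −0.06 ± 0.23 (95% interval −0.51 to 0.38), the border zone from the normal region by −0.28 ± 0.23 (−0.72 to 0.17) and the core from the border zone by 0.21 ± 0.20 (−0.17 to 0.60), with adjusted p of 0.841, 0.606 and 0.391 (limma). Within pigs the last 2 went mostly against the pooled sign. Of 6 pigs 4 were higher in the border zone than in their normal region, and 2 were lower. From border zone to core 6 of 9 pigs were lower. Pig 40 had no normal region array, so its border zone value enters the pooled difference without a pair. Without pig 40 the core to border difference turned to −0.11 (adjusted p = 0.555, limma).

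SMAD3, the receptor-activated SMAD that drives much of the matrix response to TGF-beta, was lower in the infarct core than in the normal region by its brighter probe. Its level was 0.84 to 1.33 (median 1.08) in the normal region, −0.57 to 1.36 (median 0.98) in the border zone and 0.12 to 0.79 (median 0.72) in the infarct core. Core and normal region did not overlap, and the lowest values were the border zone (−0.57) and core (0.17) of pig 40 and the core of pig 16 (0.12). The difference fell by 0.36 ± 0.14 on the log2 scale (adjusted p = 0.0403, limma), with 6 of 6 pigs lower, by 0.18 in pig 10 to 0.72 in pig 16. It was −0.45 within scan series 1 and −0.32 within series 2, neither past the threshold (adjusted p = 0.319 and 0.146, limma).

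This SMAD3 call stood close to the threshold. It was lost with pig as a fixed replicate block (−0.31, adjusted p = 0.0515) and without 7 of the 9 pigs in turn. With pigs 10, 12, 13, 14, 15, 16 and 18 left out, each alone, the adjusted p was 0.0866, 0.0501, 0.0512, 0.0785, 0.0724, 0.0849 and 0.191 (limma). The SMAD3 probe printed above gave −0.19 ± 0.21 (adjusted p = 0.472, limma) and r = 0.67 with the brighter probe, and its levels parted by scan series, at −3.67 to −2.42 in series 1 and −2.37 to −1.10 in series 2. Core against border zone was −0.15 ± 0.12 with all pigs (adjusted p = 0.337, limma) and −0.30 without pig 40 (adjusted p = 0.014), as pig 40 was higher by 0.74 in its core and the other 8 pigs were lower by 0.16 to 0.65. Border zone against normal was −0.21 ± 0.14 (adjusted p = 0.522, limma). Within the 6 pigs with both regions it ran from −0.16 (pig 18) to 0.03 (pig 15). Pig 40, with the lowest border zone level, had no normal region array.

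**Figure D3:**
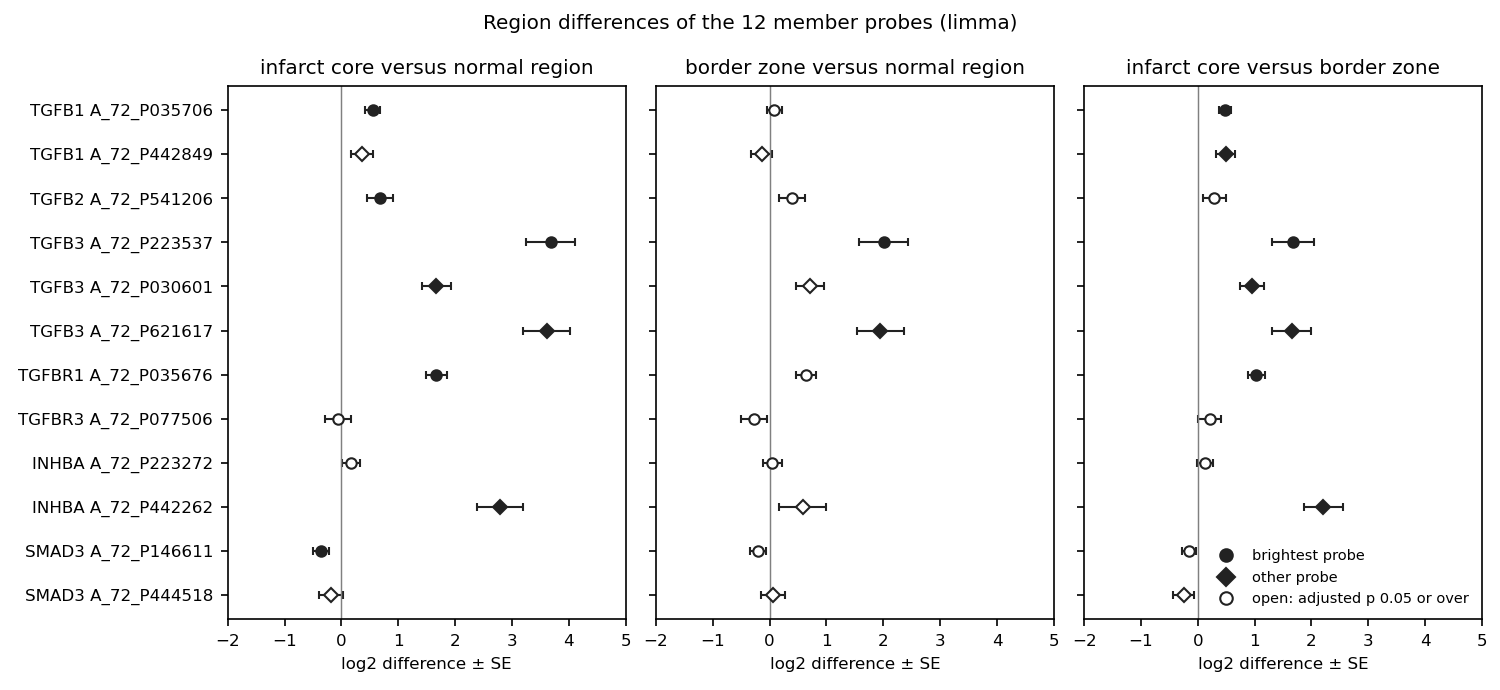
Log2 difference ± SE (limma) of each of the 12 probes in the 3 region comparisons. Circles are the brightest probe of a gene, diamonds its other probes, and filled symbols have an adjusted p under 0.05. The TGFB3 and TGFBR1 probes lie to the right in both comparisons of the infarct core, and the 2 INHBA probes lie apart.

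Secretome and medium arms did not differ past the threshold for any of the 7 genes in any region by the brightest probe (limma, adjusted p from 0.662 to 1.0), where 0.0146% of all probes passed in the core and 0.0% in each of the other regions. In the border zone 3 of the 7 genes had an unadjusted p under 0.05, and 0 did in the core or the normal region, where 7.2%, 4.9% and 1.73% of all probes did in border zone, core and normal region. The 95% intervals (normal approximation) allow differences of some size. For TGFB3 they ran from −1.48 to 1.61 in the infarct core and from −3.0 to 0.09 in the border zone, and for TGFB1 they ran from −0.74 to 0.16 and from −0.24 to 0.66.

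The border zone held the largest arm differences. TGFBR1 was at −3.09, −2.41 and −1.61 in pigs 10, 18 and 40 with medium and at −3.60 to −2.87 (median −3.25) with secretome, a difference of −0.88 ± 0.32 (adjusted p = 0.662, limma), and −0.50 ± 0.36 without pig 40. TGFB3 was at 3.05, 4.33 and 4.66 with medium and at 0.22 to 4.17 (median 2.48) with secretome, a difference of −1.45 ± 0.79 (adjusted p = 0.692). The arms overlapped for both genes. TGFBR3 was higher with secretome by 1.08 ± 0.41 (adjusted p = 0.662, limma) and SMAD3 by 0.65 ± 0.26 (adjusted p = 0.675), and these became 0.28 ± 0.30 and 0.15 ± 0.20 without pig 40, whose border zone array was the lowest for both. The macrophage markers in the border zone summed to 85.8 to 118 with medium and to 38.8 to 92.4 with secretome (11 measured of 15, 0 of 11 past the threshold between arms). The fibroblast markers there summed to 369 to 453 with medium and to 154 to 452 with secretome, and the T and NK cell markers to 5.57 to 28.3 and 4.66 to 16.0. The part of these differences in the TGFBR1 and TGFB3 values was not tested.

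In the infarct core TGFB3 was at 4.97, 4.75 and 5.08 in pigs 10, 18 and 40 with medium and at 3.53 to 5.65 (median 5.35) with secretome, a difference of 0.07 ± 0.79. In the normal region the 4 secretome arrays of TGFBR1 (−3.59 to −2.89) all lay above the medium arrays of pigs 10 (−3.98) and 18 (−3.65), a difference of 0.38 ± 0.37 (adjusted p = 1.0, limma). By their brightest probes the other measured genes overlapped between arms in the normal region. The share of all probes whose arms or regions lie apart in this way is not given here. The dimmer INHBA probe was not well above background on either normal region array of the medium arm, and no arm difference is given for it there. Tests of whether a region difference itself differed between arms called 0 of 7 genes in each of 3 pairs of regions (adjusted p from 0.841 to 1.0, limma), where 0.0% of all probes passed. At an unadjusted p under 0.05 stood 4 genes for core against border zone (TGFB1, TGFBR1, TGFBR3 and SMAD3), 0 for core against normal and 1 for border zone against normal (TGFBR1, −1.25 ± 0.35, adjusted p = 0.926). Of all probes 5.46%, 3.41% and 4.85% did so. Pig 40 stood apart in the first of these comparisons: from border zone to core it rose by 1.47 for TGFB1, 2.0 for TGFBR3 and 0.74 for SMAD3, against 0.31 and 0.40, 0.18 and −0.08, and −0.16 and −0.21 in the other medium pigs, 10 and 18.

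**Figure D4:**
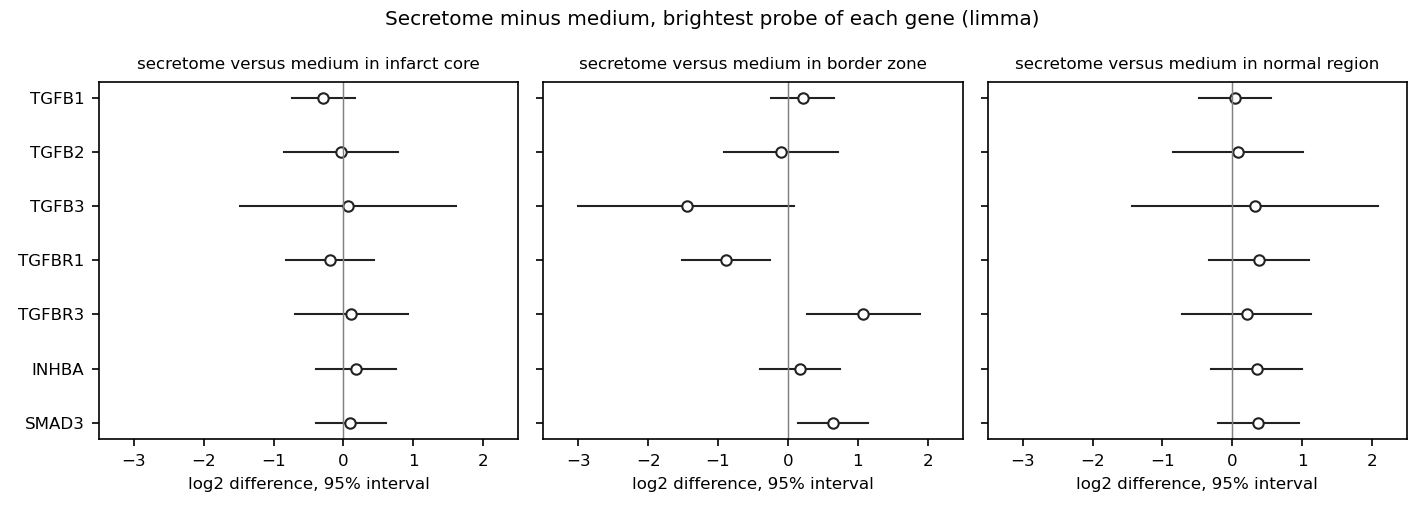
Secretome minus medium for the brightest probe of each gene in the 3 regions: log2 difference (circle) with its 95% interval (line). None has an adjusted p under 0.05, and the widest intervals are those of TGFB3.

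The other genes of the pathway were read from 6 lists of 149 genes, 92 of them measured. Against the normal region, 49 of the 92 were higher and 14 lower in the infarct core (limma), with a median log2 difference of 0.58, while the median of all 6205 named genes was −0.07 with 1701 higher and 1918 lower. The list medians were highest for the target genes and for the genes that store or release the ligands, and that of the other ligands and their binders was 0.54. The median of the other receptors, of the SMADs with their partners and of the kinases and other signal carriers lay between −0.13 and −0.08. These lists were chosen with earlier results of these arrays known, so their counts are a description.

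Of 19 measured genes that store or activate TGF-beta, 14 were higher in the infarct core and 2 lower, with a median of 1.51. Over all probes 25.4% were higher and 27.6% lower. FMOD and BGN, small matrix proteoglycans that bind TGF-beta, rose by 5.38 ± 0.55 and 4.09 ± 0.47 (adjusted p = 3.18e-07 and 9.35e-07, limma), FMOD being well above background on 19 of 24 arrays. FBN1, the fibrillin on which latent complexes are anchored, rose by 2.20 ± 0.25. LTBP2, a latent TGF-beta binding protein family member, rose by 2.41 ± 0.40, and its other probes gave 0.57 to 0.87. THBS1, a matricellular protein that can free the ligand, rose by 2.05 ± 0.28. The 2 lower genes were the integrin subunits ITGB6 (−3.17) and ITGB3 (−0.55), of which ITGB6 belongs to an epithelial integrin that releases TGF-beta. The other ITGB3 probe gave 1.29, so the direction of ITGB3 depends on the probe.

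In the border zone FMOD passed (2.45 ± 0.55, adjusted p = 0.0456, limma), while ASPN (1.52 ± 0.36, adjusted p = 0.0578) and BGN (1.77 ± 0.47, adjusted p = 0.0872), likewise small matrix proteoglycans, did not. From border zone to core the smallest p of this list were those of MMP9 (3.56 ± 0.43), FBN1 (1.52 ± 0.22) and MMP14 (1.57 ± 0.23), a fibrillin between a pair of matrix metalloproteinases.

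Of 16 measured ligands and ligand binders of the wider family, 7 were higher in the infarct core than in the normal region and 3 lower. Over all probes 25.4% were higher and 27.6% lower there. GDF11, a relative of myostatin, was higher by 2.18 ± 0.28 with its probe well above background on 17 arrays. The BMP antagonist CHRD was higher by 1.91 ± 0.27 and BMP5 lower by 1.97 on the log2 scale (BMP5 −1.97 ± 0.31). In the border zone 0 of the 16 passed, and the smallest p were those of GDF15 (0.89 ± 0.34, adjusted p = 0.239, limma), BMP7 (1.09 ± 0.47, adjusted p = 0.299) and MSTN (−0.98 ± 0.42, adjusted p = 0.299).

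Of 11 other receptors and co-receptors 2 were higher and 2 lower in the core than in the normal region, where 25.4% of all probes were higher and 27.6% lower. CD109, a co-receptor known to dampen TGF-beta signals, rose by 2.81 ± 0.27 and the pseudoreceptor BAMBI by 1.39 ± 0.23 (adjusted p = 2.05e-07 and 3.36e-05, limma). The activin receptor ACVR2B was lower (−0.75 ± 0.20, adjusted p = 0.00384), and ENG, the endothelial co-receptor endoglin, was at −0.11 ± 0.30 (adjusted p = 0.779). Against the border zone the type I activin receptor ACVR1B was lower in the core (−0.72 ± 0.23, adjusted p = 0.0123). The 7 endothelial markers summed to 37.2 to 91.2 in the normal region and to 28.5 to 62.1 in the core, and their part in the ENG and TGFBR3 values was not tested.

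Among 13 SMADs and their partners 3 were higher and 3 lower in the core than in the normal region, beside 25.4% and 27.6% of all probes. PMEPA1 and SMAD7, feedback inhibitors that TGF-beta induces, were higher by 2.79 ± 0.35 and 0.92 ± 0.16 (adjusted p = 2.26e-06 and 7.27e-05, limma), and their other probes gave 2.43 and 0.88. SMAD2, the other SMAD activated by TGFBR1, was higher by 0.39 ± 0.09 (adjusted p = 0.000931), opposite in sign to SMAD3. The common partner SMAD4 was at −0.08 ± 0.09 (adjusted p = 0.47), and PIAS4, a SUMO ligase, was lower (−0.52 ± 0.10, adjusted p = 0.000221). From border zone to core PMEPA1 (1.79), SMAD7 (0.69) and SMAD2 (0.22) were higher and the deubiquitinase USP15 (−0.58) and PIAS4 lower.

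Of 8 measured genes that carry TGF-beta signals beside the SMADs, the small GTPase RHOA was higher in the core than in the normal region (0.59 ± 0.12). TRAF6 (−0.60 ± 0.16), MTOR (−0.63 ± 0.20) and TAB1 (−0.42) were lower there, beside 25.4% of all probes higher and 27.6% lower. Of these RHOA alone passed against the border zone (0.44 ± 0.10, adjusted p = 0.0014, limma).

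Of 25 measured target genes 22 were higher in the infarct core than in the normal region and 1 lower, with a median of 1.92. Over all probes 25.4% were higher and 27.6% lower. FN1, the matrix protein fibronectin, rose by 4.61 ± 0.40, the fibroblast cadherin CDH11 by 3.41 ± 0.31 and the proteoglycan VCAN by 3.26 ± 0.31 (adjusted p = 9.69e-08, 1.23e-07 and 1.91e-07, limma). CTGF, a matricellular growth factor, rose by 2.71 ± 0.36. The lower gene was ACTA2, smooth muscle actin, at −0.94 by its brightest probe, while its 6 other probes gave 0.50 to 2.64, so its direction depends on the probe. In the border zone TNC (3.23 ± 0.58), FN1 (2.11 ± 0.40) and POSTN (2.43 ± 0.53), 3 matrix genes, passed (adjusted p = 0.0265, 0.0265 and 0.0401, limma). With no replicate block, with pig as a fixed replicate block and within scan series 2, 0 of the 92 pathway genes passed in the border zone. Secretome and medium did not differ past the threshold for any of the 92 genes in any region, with 1, 7 and 1 of them at an unadjusted p under 0.05 in the infarct core, border zone and normal region, beside the shares of all probes given above.

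**Figure D5:**
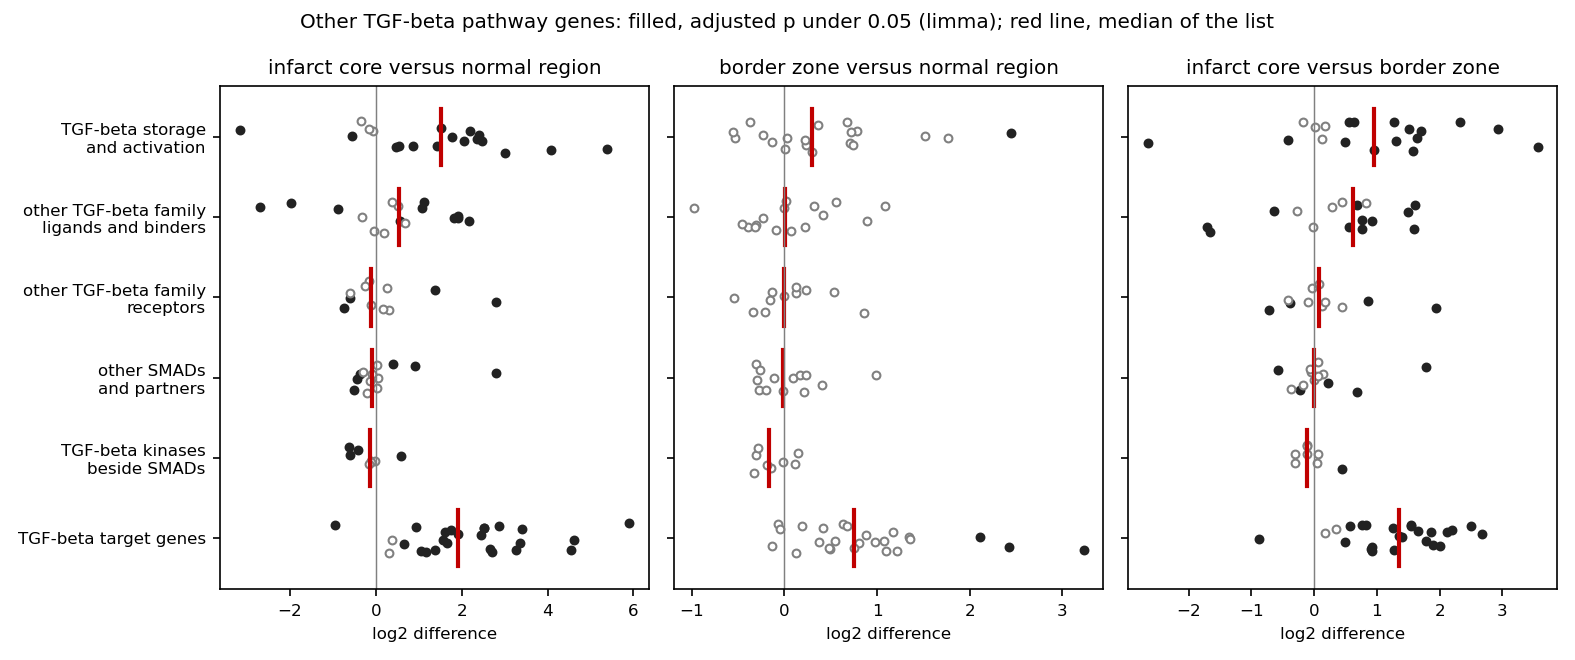
Log2 difference of each of 92 measured pathway genes by list (rows) in the 3 region comparisons (panels, each with its own axis). Filled points have an adjusted p under 0.05 (limma) and red lines are list medians: 1.51 for storage and activation and 1.92 for target genes in the infarct core against the normal region, and −0.13 to 0.54 for the other 4 lists.

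Marker genes of other cells moved between the same regions. All 6 measured fibroblast markers were higher in the infarct core than in the normal region, and they summed to 147 to 261 in the normal region, 154 to 453 in the border zone and 346 to 955 in the core. The same held for 11 of 11 macrophage markers, which summed to 44.7 to 83.4, 38.8 to 118 and 84.8 to 315, while 10 of 10 cardiomyocyte markers were lower in the core. Of the listed markers, 6 of 11 for fibroblasts, 11 of 15 for macrophages and 10 of 15 for cardiomyocytes had a usable probe. Over all probes 25.4% were higher and 27.6% lower in the core than in the normal region. The fibroblast list shares COL1A1, COL1A2 and COL3A1 with the target genes and DCN with the storage genes. Its counts are therefore not a reading separate from those lists. With scan series means removed, TGFB3 had r = 0.97 with the fibroblast, 0.84 with the macrophage and −0.61 with the cardiomyocyte marker mean. TGFBR1 had r = 0.86, 0.90 and −0.70 with the same means. TGFB1 had r = −0.86 with the cardiomyocyte marker mean (24 arrays that share pigs and regions). TGFB1 had r = 0.68 with the fibroblast and 0.70 with the macrophage marker mean. TGFB2 had lower values, r = 0.64 with fibroblast, 0.40 with macrophage and −0.37 with cardiomyocyte markers. The part of these cells in the differences of the members was not tested.

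Among each other, TGFB3 and TGFBR1 ran most alike (r = 0.91), followed by TGFBR3 and SMAD3 (r = 0.78), and TGFBR1 and SMAD3 ran opposite (r = −0.64), all over 24 arrays with scan series means removed. The array of pig 40's border zone was the lowest for both TGFBR3 and SMAD3. Of all named genes, those with the pattern most like TGFB3 were CCDC80 (r = 0.99), C1QTNF3 (0.99) and COL11A1 (0.98), and those most like TGFBR1 were ARPC5 (0.97), FKBP7 (0.96) and MTAP (0.96). TGFB1 was most like CPNE1 (0.92), GANAB (0.92) and NCSTN (0.90), and TGFB2 most like TLE3 (0.84), FCHSD1 (0.83) and DLGAP4 (0.83). SMAD3 was most like PTPRU, ABTB2 and GTPBP1 (0.89 each). TGFBR3 was most like FZR1 (0.91), TNFRSF1B (0.88) and LATS2 (0.88), with r of 0.93, 0.95 and 0.95 in scan series 1 and 0.72, 0.34 and 0.14 in series 2. INHBA by its brighter probe was most like FYN (0.75), ZBTB11 (0.72) and ECSCR (0.72).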

How the data were processed

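Total RNA of 24 heart samples (100 ng each, RNA integrity number above 6 per the labels) was read on 1-colour Agilent porcine arrays. The authors deposited scanner output with spot intensity, whose processed signal came from Feature Extraction (Agilent, version 10.7.3.1) per the file headers. The authors' deposited table holds log2 values of 33348 probes with column medians of 7.684 to 7.692. limma 3.14.4 is named in the submitters' processing notes, and the scaling that gave this table is not given in the sources used here. It served as an alternative.

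Outlier spots were dropped, spots of a probe averaged, and log2 processed signals set relative to each array's 75th percentile. Probes well above background on at least 3 arrays were kept (34360 of 43603). A probe got its gene symbol from the name in the array files or its RefSeq accession, with Sscrofa11.1 RefSeq names. Of all probes 29326 had no symbol and 39 had several. A gene was read from its brightest kept probe.

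limma 3.58.1 (R 4.3.3) fitted 6 group means with pig as a random block (correlation 0.548), regions weighing both arms equally, with Benjamini-Hochberg adjustment over all kept probes and a threshold of 0.05. Arrays of different pigs are separate animals. Array number limits the precision. Same-pig arrays deviated together (mean correlation 0.583, 21 of 21 pairs above 0.1), but so did other pairs of a scan series (0.439), and with scan series as a covariate the block correlation was 0.204. The fit was tested on simulated data with 200 probes changed 2-fold and 200 changed 4-fold in each comparison. The other probes held no group difference, and no scan series effect was put in. Between regions it recovered 128 (core against normal), 133 (border zone against normal) and 152 (core against border zone) of the 2-fold probes. Between arms it recovered 53, 49 and 33 of them in core, border zone and normal region. In this setting most arm differences of this size would be missed. Of the 4-fold probes it recovered 133, 134 and 107 between arms. False calls ran from 3 to 18 per comparison. The recovery holds for the simulated setting, as many more probes were called between regions on the arrays themselves.

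The genes described, the pathway and marker lists and the tests were chosen with earlier results of these data known. Named pathway genes are the 3 with the smallest p of each list in each region comparison, with SMAD2, SMAD4, SMAD7, ENG, LTBP2, THBS1 and CTGF (ACVRL1 had no measured probe, and 1 further gene of the rule is not reported here). For each gene described, the 3 genes of highest correlation were named. ITGB6, ITGB3 and, between core and normal region, TAB1 were named after their values were seen. ACTA2 is given with all its probes. Alternatives were other scalings, the authors' values, other probe filters, other blocks, single scan series, probe means and leaving out each pig.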

Additional observations from a re-analysis of the deposited data

Results flagged for a closer look

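SMAD3 in the infarct core of the secretome arm was at 0.12 in pig 16, far below the other 5 pigs, which lay between 0.70 and 0.79. The gap to the nearest pig made up 0.87 of the range of the 6 arrays, above Dixon's critical value for this number, in 1 of 21 gene and group combinations of 4 to 10 arrays looked at. Chance alone flags about 1 in 20 such groups. Without pig 16 the SMAD3 difference between infarct core and normal region was −0.33 (adjusted p = 0.0849, limma), and the SMAD3 probe printed with the others was at −3.09 in the same array, within the core range of −3.29 to −1.51. The cause was not tested.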

How the results depend on the processing

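Of the members' single values under these alternatives 1065 kept their direction and side of the threshold, 68 turned sign, 63 lost a call and 4 gained one. TGFB3 and TGFBR1 in the infarct core against the border zone stayed past the threshold under every alternative tried, and so did TGFB3 in the core against the normal region. The normexp background correction shifted the median of all probes by −0.162, −0.221 and 0.137 for core against normal, border zone against normal and core against border zone, and took the TGFBR1 difference between core and normal to 0.46 (adjusted p = 0.191, limma) and that of the dimmer INHBA probe to 0.65 (adjusted p = 0.0884). The cause of each change was not tested.

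The 5 members called between core and normal were 2 with normexp, 3 with no replicate block, 3 within scan series 1, 3 within series 2 and 3 to 5 without 1 pig. The 1 member called between border zone and normal became 0 with quantile scaling, normexp, the authors' values, no filter, no replicate block, pig as a fixed replicate block, scan series as a covariate, slide as the block and within series 2, and 0 to 1 without 1 pig. Of the other pathway genes, the 63 called between core and normal were 40 with normexp, and the 59 called between core and border zone were 32 with normexp and 31 within series 2. The 4 called between border zone and normal were 1 with normexp, 0 of 70 with the authors' values, 2 without a filter, 0 with no replicate block, with the fixed replicate block, with scan series or with slide, 7 within series 1, 0 within series 2 and 0 to 7 without 1 pig.

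Of the values whose sign turned, 1 had been past the threshold as reported: the TGFB3 probe A_72_P030601 in core against normal, −0.01 with normexp. In border zone against normal, normexp gave −0.14 for TGFBR1, −0.34 for that TGFB3 probe, −0.25 for the dimmer INHBA probe and −0.21 for the dimmer SMAD3 probe, and in core against border zone −0.003 for INHBA and 0.08 for the dimmer SMAD3 probe. Border zone against normal turned to −0.03 for TGFB1 by the probe mean, to −0.06 for INHBA and −0.18 for the dimmer SMAD3 probe with no replicate block, to −0.06 for the latter with slide, to −0.12 for it and 0.07 for the dimmer TGFB1 probe within series 1, and to −0.08 for the dimmer INHBA probe within series 2. TGFBR3 in core against normal turned to 0.03 with the percentile over probes detected on all arrays and to 0.06 within series 1, and in core against border zone to −0.02 with the authors' values and −0.04 within series 2, where INHBA gave −0.02.

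Between arms in the infarct core TGFB1 gave 0.18 and TGFBR3 −0.61 with normexp, TGFB2 gave 0.02 with quantile scaling and 0.33 with slide, TGFB3 gave −0.43 within series 2 and INHBA −0.001 by the probe mean. In the border zone TGFB1 gave −0.14 and INHBA −0.21 within series 2, TGFB2 gave 0.03 with slide and 0.17 within series 1, and INHBA −0.24 by the probe mean. In the normal region TGFB1 gave −0.01 with scan series and −0.24 within series 2. TGFB2 gave −0.08 with no replicate block, −0.07 with scan series and −1.38 within series 1. TGFBR3 gave −0.03 with the authors' values, −0.25 with no replicate block, −0.01 with scan series and −0.33 within series 2, and within series 1 TGFB3 gave −0.41 and TGFBR1 −0.14.

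Leaving out 1 pig at a time moved across 0, for border zone against normal, TGFB1 (−0.05 to 0.17), INHBA (−0.01 to 0.12), the dimmer TGFB1 probe (−0.32 to 0.01) and the dimmer SMAD3 probe (−0.01 to 0.16), and TGFBR3 for core against normal (−0.17 to 0.13) and core against border zone (−0.11 to 0.41). The same held between arms in the core for TGFB2 (−0.19 to 0.15), TGFB3 (−0.06 to 0.36), TGFBR3 (−0.05 to 0.32), INHBA (−0.02 to 0.44) and SMAD3 (−0.08 to 0.22), in the border zone for TGFB1 (−0.002 to 0.40), TGFB2 (−0.50 to 0.12) and INHBA (−0.09 to 0.56), and in the normal region for TGFB1 (−0.21 to 0.30), TGFB2 (−0.42 to 0.77) and TGFBR3 (−0.13 to 0.53).

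Within a scan series, and without pig 10 or 18, a group can hold 1 array, which is then assumed to vary like the others. The fixed replicate block gives no difference between arms, because each pig was in 1 arm. TGFBR3 and the dimmer INHBA probe and A_72_P030601 have no value where only probes above background on all arrays are kept, and the dimmer TGFB1 probe and A_72_P030601 have none in the authors' table.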
